A study of Mus musculus with 12 samples.

Results

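The respiratory chain and ATP synthase transcripts were read on 12 bead arrays of endothelial-lineage cells grown from CCE, a wild-type mouse embryonic stem cell line of the 129/Sv strain. The symbol rule took genes starting with Nduf, Uqcr, Cox4 to Cox8 or Atp5, or with Sdh followed by a, b, c or d. It left out Ndufa4l2. Members were the genes of the rule that were detected (p under 0.05) on 3 or more of the 12 arrays. The rule took 89 genes on 111 probes, and 82 genes on 98 probes passed the detection filter, out of 9879 named genes and 14599 probes that passed it on the whole array. Of the 82 members, 71 encode subunits: 32 of complex I, 3 of complex II, 7 of complex III, 13 of complex IV (with Ndufa4, now placed in that complex) and 16 of ATP synthase, complex V. The other 11 are 9 assembly factors, the supercomplex factor Cox7a2l and the pseudogene Ndufs5-ps. Detection reached all 12 arrays for 79 members, 11 arrays for Ndufb11, 6 for Atp5k and 3 for Uqcrq.

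Cells positive for Flk1, a receptor carried by vascular progenitors, were sorted from embryoid bodies after 4 days and cultured for 4 further days, after which CD31-positive cells were sorted for RNA. The 4 groups of 3 replicates were normoxia (21% oxygen), normoxia with 4 µmol/l of L-685.458, hypoxia (1.5 to 2% oxygen) and hypoxia with the same dose of L-685.458. L-685.458 inhibits gamma-secretase, the protease that cleaves Notch receptors. The series record calls the replicates biological, all come from 1 stem cell line, and the groups without L-685.458 have no vehicle named in the labels.

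Complexes I and II feed electrons from NADH and succinate into ubiquinone, complex III passes them to cytochrome c, and complex IV gives them to oxygen. Complexes I, III and IV pump protons across the inner mitochondrial membrane, and complex V lets them back through to make ATP. The nuclear genes measured here supply most subunits of these complexes, mitochondrial DNA supplies the rest, and several complex IV and complex V subunits exist as tissue-specific isoforms. Low oxygen is known to move many cells from respiration to glycolysis and to exchange some complex IV subunits.

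Between 13085 and 13901 of 25697 probes were detected on an array, and 14 of 14 endothelial markers named on the array were detected. Replicate 3 stood apart in every group: on the first principal component, 27.4% of the variance, the replicate 3 arrays lay between 16.6 and 28.7 and the others between -22.7 and 3.8. The summed linear signal of 11 measured pluripotency markers also differed, at 11194 to 25212 in normoxia, 3996 to 21835 in normoxia with the inhibitor, 10880 to 12679 in hypoxia and 3204 to 8603 in hypoxia with the inhibitor. Fgf4 was the pluripotency marker with no detected probe. The summed signals of 12 haematopoietic markers were 10581 to 15320 on the normoxia arrays and 9226 to 13572 on the hypoxia arrays, and those of 7 mural markers 60478 to 71445 and 46990 to 71445. Of the haematopoietic markers, Hba-x, Hbb-y and Hba-a1 fell and Laptm5 rose in hypoxia, pooled over the inhibitor. The 14 endothelial markers summed to 78143 to 111662 on the normoxia arrays and 74510 (hypoxia with the inhibitor, replicate 3) to 115740 on the hypoxia arrays, with 0 called. The 3 measured endoderm markers, of 9 on the array, summed to 1233 to 1975 and 1808 to 2498, with 3 of 3 higher in hypoxia and 0 called. Afp, Ttr, Apoa1, Apoa2, Foxa2 and Gata4 had no detected probe, so most of the endoderm list was not measured. The part of other cell types in the members' values was not tested. In sorted cells measured in bulk, fewer cells of a type and less RNA per cell cannot be told apart.

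Most of the subunit transcripts had slightly lower signals in hypoxia. Pooled over the inhibitor, so that the 6 hypoxia arrays were set against the 6 normoxia arrays, the log2 change was below 0 for 75 of 82 members (91.5%), against 52.6% of all genes tested. The median change of the members was -0.14 on the log2 scale, a change of -9.04% in signal, and the medians within replicates 1, 2 and 3 were -0.17, -0.13 and -0.14. Over all 9879 genes the median change was -0.01. It was also -0.01 over the 1432 genes whose mean signal lay between the quartiles of the 71 subunits among the members. The groups overlapped for most members, since the 6 hypoxia arrays all lay below the 6 normoxia arrays for 14 members (17.1%, against 3.02% of all genes) and all above for 0 members (2.32% of all genes).

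Few of these small differences passed a test one gene at a time. In the limma fit over all probes, with Benjamini-Hochberg adjustment, 2 of 82 members fell at an adjusted p under 0.05, a share of 2.44% that lay at the background of 2.67% of all genes called lower, and 0 rose, against 3.08%. At an unadjusted p under 0.05 the counts were 24 lower and 0 higher, against 10.8% and 10% of all genes. With the replicate number as a block, 8 members fell (9.76%, against a background of 4.63%): Ndufb2, Ndufb6, Ndufs7, Ndufa13, Uqcrc1, Cox6b2, Sdhaf1 and Sdhaf3. Without the 4 replicate 3 arrays, 12 members fell and Ndufv3 rose, 14.6% lower against a background of 10.8% (9.91% higher), and the median change of the members was -0.13.

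**Figure D1:**
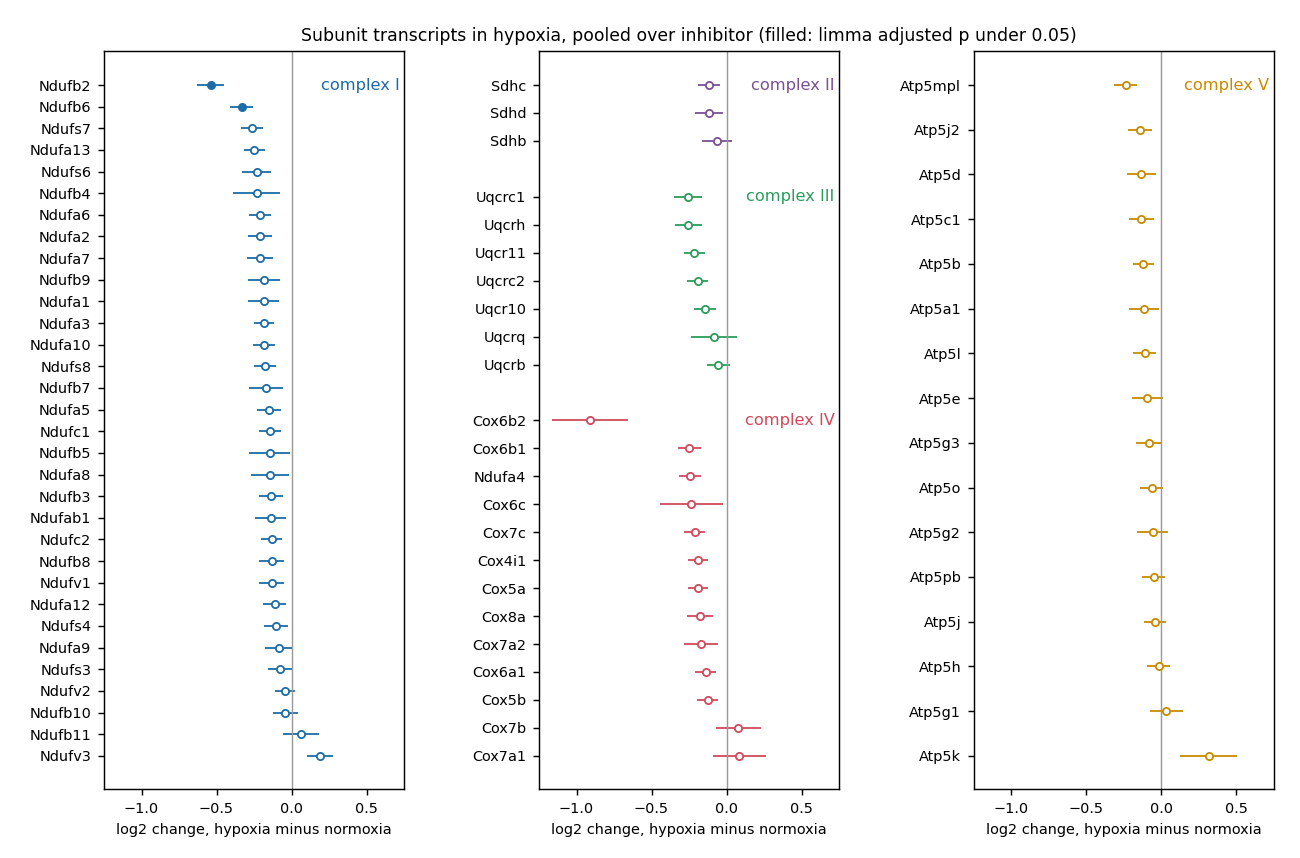
Log2 change (horizontal axis) of each of 71 subunit transcripts in hypoxia against normoxia, pooled over the inhibitor, by complex. Points are limma estimates from 12 arrays and lines are 1 standard error; filled points, Ndufb2 and Ndufb6, passed an adjusted p of 0.05, and 65 of the 71 points lie below 0.

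Most measured subunits of each complex were lower. The median log2 change was -0.15 in complex I (30 of 32 lower), -0.12 in complex II (3 of 3), -0.19 in complex III (7 of 7), -0.19 in complex IV (11 of 13) and -0.09 in complex V (14 of 16). The 6 hypoxia arrays all lay below the 6 normoxia arrays for 7 of 32 subunits in complex I and 0 of 3 in complex II. The counts were 1 of 7 in complex III, 6 of 13 in complex IV and 0 of 16 in complex V, against 3.02% of all genes. The difference between complexes was not tested, because subunits are not replicates and share the same arrays. On single arrays, the median deviation of complex IV subunits from their own means lay at 0.04 to 0.16 in the 6 normoxia arrays and at -0.15 to -0.07 in the 6 hypoxia arrays. For complex V the corresponding ranges were 0.03 to 0.10 and -0.13 to 0.01.

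**Figure D2:**
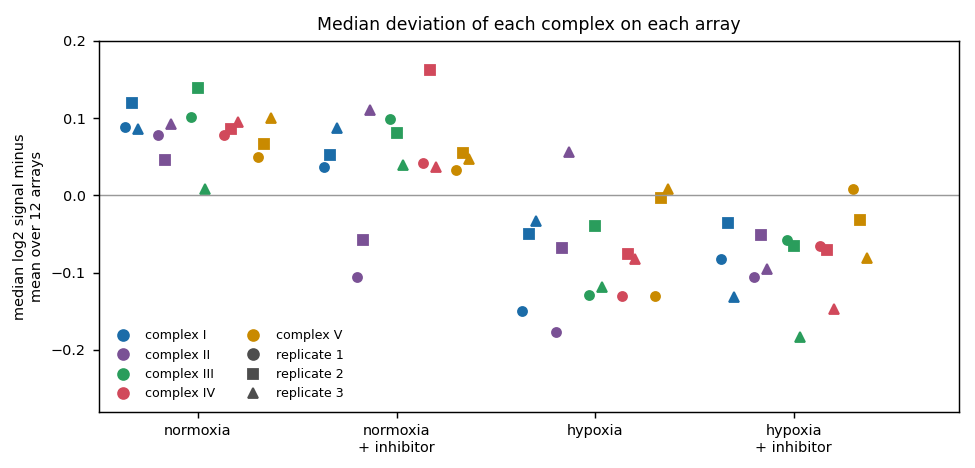
Median over the subunits of a complex of the log2 signal minus the mean of that subunit over the 12 arrays (vertical axis), for each array in the 4 groups. Colours are complexes and symbols are replicates; the normoxia arrays lie above 0 for complexes I, III, IV and V, and complex II, with 3 subunits, mixes.

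In complex I, the NADH dehydrogenase, 2 accessory subunits of its membrane arm fell. Ndufb2, on chromosome 6, had log2 signals of 9.54, 9.50 and 9.16 in normoxia, 9.45, 9.44 and 9.37 in normoxia with the inhibitor, 8.84, 8.93 and 8.87 in hypoxia, and 8.72, 8.99 and 8.87 in hypoxia with the inhibitor. All hypoxia arrays lay below all normoxia arrays. The pooled log2 change was -0.54 (SE 0.09, limma adjusted p = 0.0050), so the signal fell by 31.2%, and it passed in every fit that left out 1 array (adjusted p 0.0029 to 0.018). The change was -0.52 without the inhibitor and -0.56 with it, neither of which passed alone (limma adjusted p = 0.078 and 0.069). The replicate block moved these to 0.0504 and 0.0430.

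Ndufb6, on chromosome 4, is the other accessory subunit that fell. Its log2 signals were 12.71, 12.75 and 12.74 in normoxia, 12.80, 12.75 and 12.67 in normoxia with the inhibitor, 12.29, 12.43 and 12.55 in hypoxia, and 12.45, 12.46 and 12.26 in hypoxia with the inhibitor. The groups again did not overlap. The pooled change was -0.33 (SE 0.08, limma adjusted p = 0.029), so the signal fell by 20.5%, and it was lower in 6 of 6 same-numbered pairs. Its second detected probe changed by -0.26 without passing (limma adjusted p = 0.36), and the mean of both probes gave an adjusted p of 0.072. Without hypoxia replicate 1 or 2, normoxia replicate 1 or 2, or normoxia with inhibitor replicate 1 or 2, the adjusted p was above the threshold, up to 0.080, at changes of -0.34 to -0.30.

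The core subunits of complex I, most of which hold its flavin or iron-sulphur centres, were all lower without passing: the median change of the 5 measured was -0.13. Ndufs1, the largest core subunit, was detected on 0 of 12 arrays. Ndufs7, which carries the last iron-sulphur cluster before ubiquinone, had signals of 12.06 to 12.32 on the normoxia arrays and 11.81 to 11.97 on the hypoxia arrays. These ranges do not overlap. Its change was -0.26 (SE 0.07, limma adjusted p = 0.057), which passed with the replicate block (0.0295) and without replicate 3 (0.017). Among the accessory subunits, all 12 Ndufa genes of complex I were lower over the 12 arrays, with a median of -0.18 and Ndufa13 at -0.25 (limma adjusted p = 0.064, and 0.043 with the block). Ndufa8, at -0.14, was lower in only 3 of 6 same-numbered pairs, and was at 0.0028 with array weights and 0.024 without the replicate 3 arrays. Ndufa2, Ndufa3, Ndufa6 and Ndufa13 were the Ndufa genes of complex I whose arrays separated completely.

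Ndufv3, an accessory subunit near the NADH site of complex I, went the other way. Its log2 signals were 12.43, 12.43 and 12.48 in normoxia, 12.33, 12.39 and 12.47 in normoxia with the inhibitor, 12.71, 12.63 and 12.72 in hypoxia, and 12.74, 12.59 and 12.26 in hypoxia with the inhibitor. On 5 of the 6 hypoxia arrays the signal was above every normoxia array, and the exception, replicate 3 with the inhibitor, was the lowest of all 12. The change of 0.19 (SE 0.09, limma adjusted p = 0.26) did not pass, and all 3 probes of the gene were higher (0.19, 0.21 and 0.19). Without the replicate 3 arrays it was 0.28 (limma adjusted p = 0.027), and it also passed without hypoxia with inhibitor replicate 3 alone.

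Complexes II and III held no member that passed. Sdhb, Sdhc and Sdhd, the iron-sulphur subunit and the 2 membrane anchors of succinate dehydrogenase, changed by -0.06, -0.12 and -0.12, and the probes of Sdhb differed in sign. No probe on the array was named Sdha, so that subunit of complex II was not measured. In complex III, Uqcrc1 and Uqcrc2, its large matrix-facing core proteins, changed by -0.26 and -0.19 (limma adjusted p = 0.14 and 0.15). Uqcrc1 was lower in 6 of 6 pairs and passed with the replicate block (limma adjusted p = 0.038). The small subunits Uqcrh and Uqcr11 changed by -0.25 and -0.21 (limma adjusted p = 0.15 and 0.12). Uqcrq was detected on 3 arrays, at signals of 4.59 to 5.29 close to the detection limit, and Uqcrfs1, the Rieske iron-sulphur protein, was detected on 0 of 12.

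In complex IV, cytochrome c oxidase, 11 of 13 measured subunits were lower and none were among the 2 members that passed. Cox4i1, the main isoform of a regulatory subunit, had log2 signals of 13.85, 13.87 and 13.96 in normoxia, 13.86, 13.86 and 13.81 in normoxia with the inhibitor, 13.67, 13.64 and 13.68 in hypoxia, and 13.71, 13.66 and 13.71 in hypoxia with the inhibitor. The lowest normoxia array was above the highest hypoxia array. Its change was -0.19 (SE 0.06, limma adjusted p = 0.12). Cox5a, Cox6a1, Cox6b1, Cox7c and Ndufa4 also separated completely, with changes of -0.19, -0.14, -0.25, -0.21 and -0.24 and limma adjusted p-values of 0.091 to 0.28. Cox7b and Cox7a1 had changes above 0, of 0.08 and 0.09, with overlapping groups.

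Cox6b2, the isoform of Cox6b1 best known from testis, had the largest change among the 82 members. Its log2 signals were 8.82, 8.78 and 7.85 in normoxia, 8.84, 8.80 and 7.81 in normoxia with the inhibitor, 7.76, 7.71 and 7.29 in hypoxia, and 7.93, 7.85 and 6.90 in hypoxia with the inhibitor. Replicate 3 was the lowest array of each group, and its normoxia arrays lay among the hypoxia arrays of replicates 1 and 2. The pooled change was -0.91 (SE 0.25, limma adjusted p = 0.060), lower in 6 of 6 same-numbered pairs, and a second probe for the gene was detected on 0 of 12 arrays. With the replicate block it passed (limma adjusted p = 0.00071), as it did without the replicate 3 arrays (limma adjusted p = 0.00011), without normoxia replicate 3 alone and without normoxia with inhibitor replicate 3 alone (lowest adjusted p 0.021).

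The pluripotency markers had lower signals in hypoxia as well, with a median change of -0.64, 10 of 11 lower and 0 called (with the block, Lin28a was called higher). Within replicates 1, 2 and 3 their median was -0.96, -1.06 and -0.13. Their summed signal in replicates 1 to 3 was 25212, 24764 and 11194 in normoxia and 10880, 12679 and 11266 in hypoxia. With the inhibitor their median change was -0.55 in normoxia and -0.88 in hypoxia, with 0 called. By replicate this was -0.21, -0.19 and -1.16 in normoxia and -0.33, -0.32 and -2.17 in hypoxia. The inhibitor's change of Cox6b2 was -0.0023 in normoxia and -0.027 in hypoxia. In hypoxia replicate 3 the Cox6b2 signal was 7.29 without the inhibitor and 6.90 with it, and in replicates 1 and 2 it was higher with it. The part of the pluripotency markers in the Cox6b2 result was not tested.

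**Figure D3:**
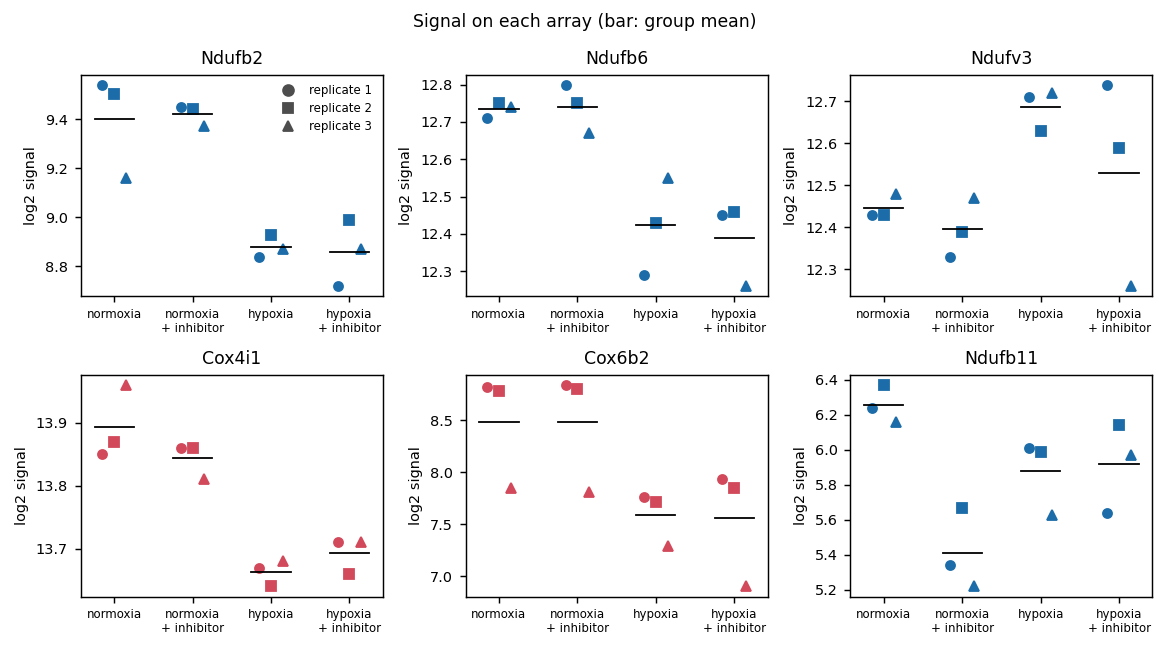
Log2 signal (vertical axis, scaled separately for each gene) of 6 subunit transcripts on the 12 arrays. Symbols are replicates and bars are group means; Ndufb2, Ndufb6 and Cox4i1 separate the 6 hypoxia arrays from the 6 normoxia arrays, and Cox6b2 is lowest in replicate 3 of each group.

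Complex V, the ATP synthase, held no member that passed and no member with separate groups. The subunits of the catalytic head and its central stalk, Atp5a1, Atp5b, Atp5c1, Atp5d and Atp5e, were all lower, with a median of -0.12. Atp5b, the catalytic beta subunit, changed by -0.12 (SE 0.07, limma adjusted p = 0.39). The peripheral stalk subunits Atp5o, Atp5pb, Atp5h and Atp5j had a median of -0.05. Of the membrane subunits, Atp5mpl changed by -0.24 (SE 0.08, limma adjusted p = 0.11) and was lower in 6 of 6 pairs, and Atp5j2 by -0.14. Atp5k, at 0.32, was detected on 6 of 12 arrays, and its signals of 4.74 to 5.91 lay close to the detection limit.

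The assembly factors that carry Nduf or Sdh symbols behaved as the subunits did in direction, with 8 of 9 lower and a median of -0.12. Sdhaf3 and Sdhaf1, which help mature the iron-sulphur subunit of succinate dehydrogenase, changed by -0.39 and -0.28 (limma adjusted p = 0.057 and 0.20). Both were lower in 6 of 6 pairs and passed with the replicate block (limma adjusted p = 0.030 and 0.021). Sdhaf2, which inserts the flavin, changed by 0.13.

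The comparisons without and with the inhibitor share no array and gave similar values. Without the inhibitor 74 of 82 members were lower in hypoxia (90.2%, against 52.5% of all genes), with a median of -0.15. With it 74 were lower (90.2%, against 51.6%), with a median of -0.12. In these comparisons of 3 against 3 arrays, 33 and 24 members had all hypoxia arrays below all normoxia arrays (40.2% and 29.3%, against 10.9% and 8.9% of all genes), and 2 and 0 had all above (10.2% and 7.47% of all genes). In limma, 0 members passed in either comparison (1.15% and 1.04% of all genes). At an unadjusted p under 0.05 there were 15 and 11 lower (5.97% and 6.18% of all genes) and 0 and 1 higher (6.31% and 6.21%), and with the replicate block 1 and 2 passed (backgrounds of 1% and 0.952%), namely Cox6b2 in both and Ndufb2 with the inhibitor.

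The same members were mostly lower in both comparisons. In 71 of 82 members (86.6%) the change was below 0 in each, against 37.5% of all genes, and in 35 (42.7%) it was below 0 in 6 of 6 same-numbered pairs, against 10.7%. Atp5g1, Atp5k, Cox7b, Ndufv3 and Sdhaf2 were above 0 in both. Across the 71 subunits the 2 sets of changes correlated at 0.59 (Pearson) and 0.41 (Spearman); subunits are not independent, and what arrays of the same replicate number share is not stated.

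**Figure D4:**
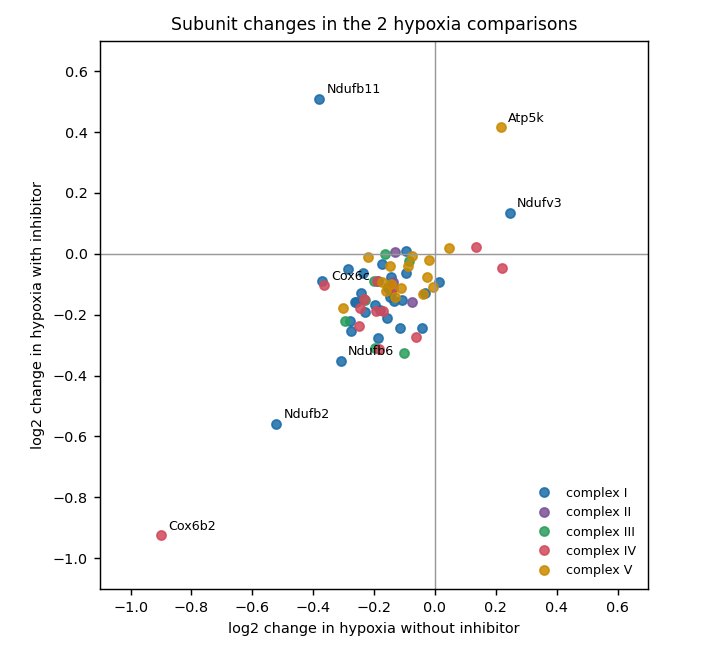
Log2 change in hypoxia without the inhibitor (horizontal axis) and with it (vertical axis) for 71 subunits, coloured by complex, with some points labelled. Most points, 62 of 71, lie in the lower left corner, where both changes are below 0; Ndufb11 is lower without the inhibitor and higher with it.

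The inhibitor itself left the members near the background. Its median change over the 82 members was -0.02 in normoxia (49 lower, 59.8%, against 51.2% of all genes) and 0.00 in hypoxia (40 lower, 48.8%, against 50.6%). In limma 0 members passed in either comparison or in the interaction of oxygen and inhibitor, where 0% of all genes were called, also with the replicate block. At an unadjusted p under 0.05 there was 1 member in normoxia (1.89% of all genes), 0 in hypoxia (3.91%) and 1 in the interaction (1.5%). That member was in both cases Ndufb11, an accessory subunit of the complex I membrane arm encoded on the X chromosome.

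Ndufb11 had log2 signals of 6.24, 6.37 and 6.16 in normoxia, 5.34, 5.67 and 5.22 in normoxia with the inhibitor, 6.01, 5.99 and 5.63 in hypoxia, and 5.64, 6.14 and 5.97 in hypoxia with the inhibitor. The 3 normoxia arrays with the inhibitor were below the 3 without it, while the hypoxia groups overlapped. The inhibitor's change in normoxia was -0.85 (SE 0.17, unadjusted p = 0.00031, limma adjusted p = 1.0). The signal is dim, 11 of 12 arrays detected it, and a second probe for the gene was detected on 0 of 12.

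Isoform use was compared as the change of a within-array log2 ratio, since signals of different probes do not compare as levels. Of 12 pairs considered, 6 had both genes detected. The pair of Ndufa4 and Ndufa4l2, a gene that the symbol rule leaves out, was considered and was not among those 6. The ratio of Cox6b2 to Cox6b1 changed by -0.66 in hypoxia and was lower in 6 of 6 same-numbered pairs (exact permutation test, two-sided, p = 0.04, 0.15 adjusted over 6 pairs). The ratio of Cox7a1, the muscle isoform, to Cox7a2 changed by 0.25 and was higher in 6 of 6 (exact permutation p = 0.05, 0.15 adjusted). Pairing arrays by replicate number gave an adjusted exact permutation p of 0.094 for both, at the smallest raw p that 6 pairs allow, 0.031. The paired test could not give a smaller raw p, so its adjusted value decides nothing about these 2 ratios. In the unpaired test, whose smallest possible p was 0.005, the ratios did not pass.

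The remaining ratios did not pass either. Cox7a2l over Cox7a2 differed by 0.03 (exact permutation p = 0.79), at -0.16 without the inhibitor and 0.23 with it. The c-ring of ATP synthase is made from 3 genes for one identical mature protein, and the ratios of Atp5g2 to Atp5g1, Atp5g3 to Atp5g1 and Atp5g3 to Atp5g2 changed by -0.09, -0.12 and -0.03 (exact permutation p = 0.32, 0.36 and 0.82, adjusted 0.53 to 0.82). The last was 0.21 without the replicate 3 arrays. Cox4i2, an isoform described as responsive to low oxygen, was detected on 0 of 12 arrays, at log2 signals of 4.43 to 4.80 against a lowest detected signal of 5.08 to 5.24, so its exchange with Cox4i1 could not be measured. Cox6a2, Cox7b2, Cox8b and Cox8c, isoforms of muscle or testis, were likewise detected on 0 of 12.

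**Figure D5:**
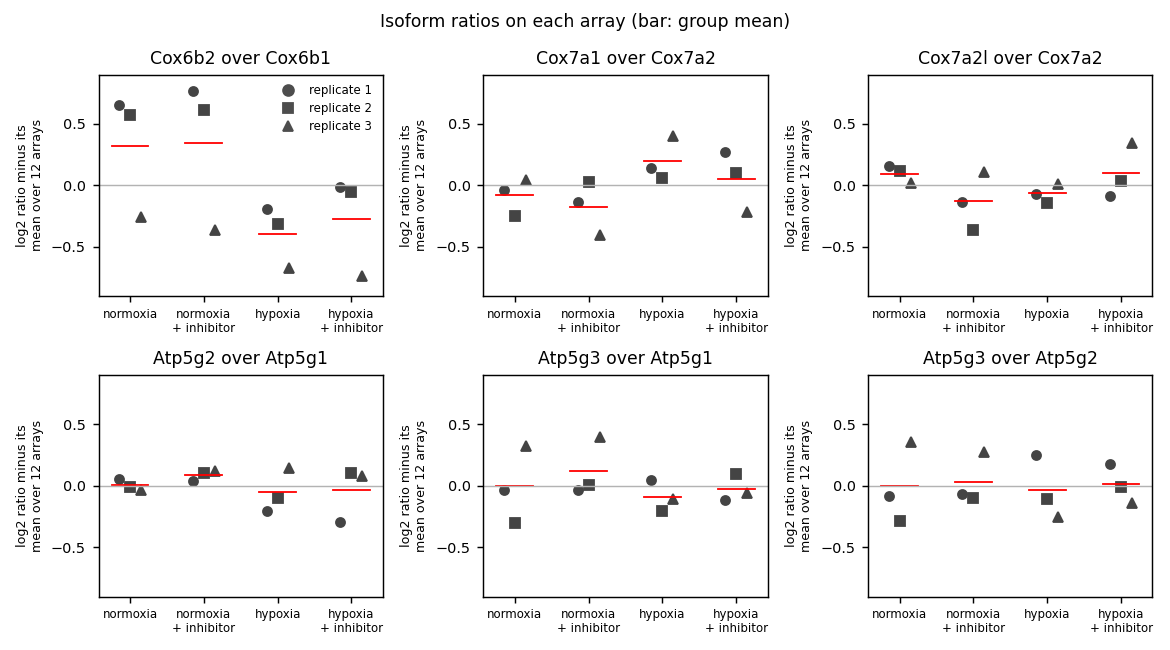
Log2 ratio of 2 isoforms on each of 12 arrays, minus its mean over the arrays (vertical axis), for the 6 pairs measured. Symbols are replicates and red bars are group means; the Cox6b2 to Cox6b1 ratio is lower in hypoxia within each replicate and lowest in replicate 3.

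Genes that serve the chain without carrying its symbols gave mixed values in the pooled comparison. Of all genes, 2.67% were called lower and 3.08% higher, or 4.63% and 4.86% with the replicate block. The counts called in the lists were not tested against these shares. Among electron carriers and entry enzymes 11 of 14 were lower, with 0 called and a median of -0.08. Of 29 assembly factors with other names, 24 were lower and Gfer, an oxidase of the intermembrane space import route, fell by 0.39 (limma adjusted p = 0.040), or 3 of the 29 with the replicate block; the median was -0.11. Among 16 genes of iron-sulphur and haem synthesis, Nfs1, the cysteine desulphurase, fell by 0.42 (limma adjusted p = 0.045) while Isca1, a later assembly factor, rose by 0.30 (limma adjusted p = 0.035); the block gave 2 lower and 1 higher, and the median was -0.01. Regulators of mitochondrial biogenesis had 7 of 16 lower, 0 called and a median of 0.03, and import and protease genes had 11 of 17 lower, 0 called and a median of -0.07. Cyc1 and Atpif1, a complex III subunit and the ATP synthase inhibitor, changed by -0.12 and -0.22 (limma adjusted p = 0.58 and 0.11).

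Hypoxia-induced genes, some of them mitochondrial, had larger changes than most members. All 12 measured were higher and 10 rose, with a median of 1.15. Over all genes 3.08% were called higher. The median of the list within replicates 1, 2 and 3 was 1.34, 1.41 and 0.77. Without the inhibitor it was 1.35, 1.39 and 1.30, and with it 1.28, 1.37 and 0.46, so the low value of replicate 3 came from the comparison with the inhibitor. The largest changes were those of Egln3, an oxygen-sensing hydroxylase, at 2.13, Mgarp, a protein of mitochondrial transport, at 1.86 and Ak4, a mitochondrial adenylate kinase, at 1.70. Pdk1, which keeps pyruvate out of the citric acid cycle, rose by 0.90 (limma adjusted p = 0.041), and Higd1a, a small protein that binds complex IV, by 0.56 (limma adjusted p = 0.025).

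Promoter sequence was examined as a description of the members, and its part in their lower signals was not tested. RefSeq windows of GRCm38.p6, 250 bases before to 50 after the start, were found for 71 of the 82 members and searched on both strands. The NRF1 motif was held by 18 (25.4%, against 11.2% of 8033 measured genes and 5.19% of 27025 genes with a window). The GABP motif CCGGAAG was held by 20 (28.2%, against 19.4% and 9.93%), and the YY1 motif AAGATGGCG by 7 (9.86%, against 3.56% and 1.64%). The core of the hypoxia response element, ACGTG, which also sits inside E-box motifs, was held by 17 (23.9%, against 29.3% and 21.8%). The ERR motif TCAAGGTCA was held by Atp5g3 and Sdhd. NRF1, GABP, YY1 and ERR are known regulators of respiratory genes; a match is only a match of letters.

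The 250 bases before the start are shown for the 2 members that fell, for the isoform pair with the largest ratio change, and for Cox6a1, whose window holds NRF1 and GABP motifs. Capitals mark motif matches. They begin 232 bases before the start in Ndufb6, 162, 117 and 16 in Cox6a1 and 28 in Cox6b1, and there are none in the letters shown for Ndufb2 and Cox6b2. The windows are chr6:39592315-39592564 (plus strand), chr4:40279422-40279671 (minus), chr5:115348959-115349208 (minus), chr7:30626115-30626364 (minus) and chr7:4753095-4753344 (minus).
Ndufb2: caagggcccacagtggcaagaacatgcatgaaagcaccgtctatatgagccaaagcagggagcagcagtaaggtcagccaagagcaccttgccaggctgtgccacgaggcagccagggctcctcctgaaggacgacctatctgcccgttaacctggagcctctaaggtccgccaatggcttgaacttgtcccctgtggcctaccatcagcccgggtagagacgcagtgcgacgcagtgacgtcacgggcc
Ndufb6: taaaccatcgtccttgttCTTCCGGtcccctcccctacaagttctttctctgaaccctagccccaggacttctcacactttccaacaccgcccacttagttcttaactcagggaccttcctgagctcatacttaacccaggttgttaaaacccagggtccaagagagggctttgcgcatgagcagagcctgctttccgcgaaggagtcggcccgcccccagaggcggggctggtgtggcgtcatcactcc
Cox6a1: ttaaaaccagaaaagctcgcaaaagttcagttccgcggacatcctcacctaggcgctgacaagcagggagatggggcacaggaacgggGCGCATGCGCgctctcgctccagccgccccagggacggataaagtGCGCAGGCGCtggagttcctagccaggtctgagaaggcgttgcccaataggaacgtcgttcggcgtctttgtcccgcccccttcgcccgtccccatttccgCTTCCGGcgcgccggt
Cox6b1: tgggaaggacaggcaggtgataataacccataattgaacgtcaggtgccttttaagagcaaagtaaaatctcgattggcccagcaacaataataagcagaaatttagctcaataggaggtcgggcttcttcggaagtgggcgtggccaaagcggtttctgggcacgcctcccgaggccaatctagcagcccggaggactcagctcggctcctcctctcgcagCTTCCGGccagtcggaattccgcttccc
Cox6b2: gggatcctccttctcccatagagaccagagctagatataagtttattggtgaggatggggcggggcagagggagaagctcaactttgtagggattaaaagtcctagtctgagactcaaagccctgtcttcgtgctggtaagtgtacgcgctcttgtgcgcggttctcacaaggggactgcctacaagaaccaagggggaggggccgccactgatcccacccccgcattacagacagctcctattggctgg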

How the data were processed

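The deposited non-normalized table holds an intensity per probe and array, background-subtracted by the authors' software since 23.3% of values are below 0, and, per its header, the deposited detection p-value. The submitters' processing notes name BeadStudio. The authors' processed intensity table, floored at 20 by a method not given in the sources used here, served as an alternative.

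Background was corrected in limma 3.58.1 (R 4.3.3) with a normal-exponential model that reads its noise from the detection p-values, with an offset of 16, and arrays were quantile normalized and taken to log2. Probes with detection p under 0.05 on at least 3 arrays were kept, and a gene is its brightest kept probe; of 12 members with several kept probes, all probes were lower in hypoxia for 10, all higher for 1 and mixed for 1. Each probe was fitted as 4 group means over 12 arrays, two-sided, with Benjamini-Hochberg adjustment over 14599 probes and a threshold of 0.05; called means past it. Backgrounds count 9879 named genes in the same way. The pooled comparison is the mean of the 2 hypoxia comparisons. Isoform ratios were tested by exact permutation over 400 assignments within inhibitor status. The fit was tested on simulated data.

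The replicate numbers come from the sample titles. The correlation of same-numbered arrays, each as its deviation from the group mean, was 0.30 to 0.58 for hypoxia without the inhibitor, 0.11 to 0.25 with it, 0.38 to 0.64 for the inhibitor in normoxia and 0.03 to 0.08 between the hypoxia groups. The correlation of differently numbered arrays was not set beside these values, so whether the numbers pair the samples was not tested. The values include the shift of the replicate 3 arrays, which stood apart in every group. The fit has no replicate term, and the block is given as an alternative beside each result it changes. What samples of 1 number have in common is not given in the labels, and p-values measure the spread between these samples.

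The members and gene lists were chosen with earlier results of these data known. Named genes are, per complex, the 3 of smallest p in the pooled comparison and the 1 of smallest p in each other comparison, every called member, the isoform pairs and up to 4 called genes of each list; any other gene, such as Ndufv3, Ndufa2, Ndufa3, Ndufa6, Ndufa13, Cox5a, Cox7c, Atp5k, Uqcrq, Mgarp, Ak4, Pdk1, Higd1a and the assembly factors, was named after its values were seen. Symbols are those of the platform annotation. Arrays have no read depth; the number of arrays limits precision, and the median standard error of a member's pooled change was 0.083. Alternatives were the replicate block, median scaling, an offset of 50, no further background correction, other filters, the processed table, array weights, the mean of all probes, and leaving out arrays. Figures used Python 3.11.15 and matplotlib 3.10.9.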

Additional observations from a re-analysis of the deposited data

Results flagged for a closer look

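Ndufb11 was picked out because its 2 hypoxia changes had opposite signs: the change with the inhibitor exceeded the change without it by 0.89 on the log2 scale (SE 0.24, unadjusted p = 0.0029). The limma interaction did not pass over all probes (adjusted p = 1.0), and the signals, 5.22 to 6.37, lie near the detection limit, whose part was not tested.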

How the results depend on the processing

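The sign of the median change of the 82 members held in the 3 hypoxia comparisons under every alternative run, at -0.15 to -0.12 pooled, -0.18 to -0.12 without the inhibitor and -0.14 to -0.09 with it. Counts of members called moved, and so did the share of all genes called, given here in parentheses. Pooled, 2 (5.75%) became 8 with the replicate block (9.48%), 6 with an offset of 50 (6.96%), 4 of 89 with no filter (3.19%), 5 of 80 with a stricter filter (7.51%), 27 with array weights, 26 of them lower (22.1%, 11.5% lower) and 13 without replicate 3 (20.7%). Median scaling gave 3 pooled (5.61%), with Sdhaf3 added. The mean of all probes also gave 3 pooled (6.05% of 10726 tested), namely Ndufb2, Ndufa13 and Ndufs7, and lost Ndufb6. Without the inhibitor, 0 (1.15%) became 1 with the block (2.48%), 1 with the offset of 50 (1.62%), 8 with weights (8.95%) and 4 without replicate 3 (9.44%). With the inhibitor, 0 (1.04%) became 2 with the block (2.03%), 1 with the offset (1.31%), 1 with the stricter filter (1.46%), 4 with weights (8.64%) and 3 without replicate 3 (11.1%). The replicate block changed no other call of a member. Leaving out 1 array gave 1 to 5 called pooled, against 3.16% to 7.84% of all genes (1 without normoxia 1 or 2, normoxia with inhibitor 1 or 2, or hypoxia 1 or 2; 4 without normoxia 3 or hypoxia with inhibitor 3; 5 without normoxia with inhibitor 3) and 0 to 1 in each single hypoxia comparison. The median for the inhibitor in normoxia, -0.020, was -0.032 in the processed table, -0.036 without replicate 3 and -0.036 to -0.018 leaving out 1 array.

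Some members changed sign. With array weights and without replicate 3, Ndufa8 was 0.0028 and 0.024 (reported as -0.14), Atp5g1 -0.0036 and -0.0047 (0.03) and Atp5g3 0.0032 and 0.041 (-0.09). Ndufa8 under the inhibitor in hypoxia, -0.25, was 0.020 without replicate 3. Without replicate 3 the ratios of Cox7a2l to Cox7a2, Atp5g3 to Atp5g1 and Atp5g3 to Atp5g2 were -0.0070, 0.046 and 0.21. Leaving out 1 array gave -0.025 to 0.090 for Atp5g1, -0.011 to 0.17 for Cox7b, -0.023 to 0.24 for Cox7a1, -0.088 to 0.014 for Sdhd under the inhibitor in normoxia, -0.028 to 0.093 for Cox7a2l over Cox7a2 and -0.099 to 0.063 for Atp5g3 over Atp5g2. The causes were not tested. A slide block was not run, as the files used here name no slide.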
